A study of Mus musculus with 2 samples.

Results

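The genes described here are 40 genes of the endoplasmic reticulum (ER): the sensors and transcription factors of the unfolded protein response, the chaperones and disulfide isomerases that fold secreted proteins, the degradation machinery, and the channel and peptidase through which new chains enter. A gene was taken from the rows of the array whose platform annotation names that gene and no other, and the brightest row stood for it. Of the 40 genes, 38 had such a row, out of 19232 protein-coding genes named the same way. Manf, a secreted chaperone-like factor, had its row annotated together with Rbm15b, and Pdia4, a disulfide isomerase, with Mir704, so neither was analysed here.

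Total RNA of circPan3-/- cells and of circPan3+/+ cells was each hybridised to 1 array of the Affymetrix Clariom D mouse design, 2 arrays in all. Both came from small intestine of 8-week-old mice carrying Lgr5GFP-CreERT2, an allele that puts green fluorescent protein and an inducible Cre under the stem cell receptor gene Lgr5, and both were sorted as Lgr5GFP+ intestinal stem cells; circPan3 is a circular RNA of the gene Pan3. Whether an array held RNA of 1 mouse or of a pool was not given in the sources used here. Since a genotype has 1 array, the values come with no error and no p, and a difference speaks of the arrays rather than of the genotypes.

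The ER is where proteins bound for the cell surface or for secretion are threaded through the Sec61 channel, trimmed, glycosylated, folded and given disulfide bonds. Chains that fail to fold are pulled back to the cytosol and degraded. When unfolded chains build up, the sensors IRE1 (Ern1), PERK (Eif2ak3) and ATF6 switch on factors that raise chaperones and degradation genes. In the gut, goblet and Paneth cells, which secrete mucins and antimicrobial proteins, hold a large ER and depend on this machinery, whereas stem cells secrete little.

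Differences were taken on the log2 scale, as the deposited circPan3-/- signal minus the circPan3+/+ signal, so 1 stands for 2-fold. The 2 arrays were not level with each other. Over the 19232 named genes the median difference was 0.27, and 75.0% of them lay above 0. The offset grew with brightness, from a median of 0.09 in the dimmest eighth of genes to 0.54 in the brightest eighth. ER genes are mostly bright, so each difference is also given as what remains beyond a smooth curve through all named genes at the same level, called the level trend below. As a limit of detection, the 95th percentile of 5222 negative control rows was 5.56 for the circPan3-/- array and 5.06 for that of circPan3+/+ cells. Of the 38 genes, 29 lay above the limit on both arrays, 7 on neither, Creb3l1 only on the circPan3-/- array and Ssr4 only on the circPan3+/+ array. Where only the dimmer value was under its limit the fold is a bound, and where both were under, no fold is given. In the circPan3-/- column 4.20% of all rows had a value in common with some other row, and in the circPan3+/+ column 69.1% did. The circPan3+/+ values of 15 of the 38 genes were shared in this way, 10 of them by over 10 rows.

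The cells were checked against their label. Lgr5 itself had a signal of 7.02 in circPan3-/- cells and 10.91 in circPan3+/+ cells, a difference of -3.89, and was above both limits. Of 13 stem cell markers measured, 7 were higher by 2-fold or more in circPan3-/- cells and 2, Lgr5 included, were lower by as much. With values under a limit taken as bounds, 3 were higher and 2 lower, since 6 of the 13 were under both limits. Olfm4, the other lower marker and also above both limits, had 10.28 in circPan3-/- cells and 11.53 in circPan3+/+ cells. Slc12a2, an ion cotransporter gene above both limits, had 8.39 in circPan3-/- cells and 5.47 in circPan3+/+ cells. Prom1 was at least 2.85-fold higher, its circPan3+/+ value being under the limit, and Smoc2 was under both limits. Detected stem cell markers thus differed in opposite directions. The row of Pan3 is annotated to the host gene, and whether its probes also read the circle was not tested. It had 5.64 in circPan3-/- cells and 4.84 in circPan3+/+ cells, a difference of 0.80, with the circPan3+/+ value under its limit.

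Of the 38 measured ER genes, 6 were higher by 2-fold or more in circPan3-/- cells, and none was lower by 2-fold. Among all named genes the share higher by 2-fold was 7.48% and the share lower was 2.17%, and among the 2618 above both limits these shares were 13.9% and 1.57%. The 6 were Creb3l4, Creb3l1, Hspa5, Canx, Herpud1 and Dnajc3; 4 of them were among the 29 genes above both limits, and with values under a limit taken as bounds 5 remained past 2-fold, without Creb3l4. The median difference of the 38 genes was 0.59, and 36 differences lay above 0. Over the 29 genes above both limits it was 0.63, against 0.53 for all named genes above both limits. Beyond the level trend the median of the 38 was 0.05, with 20 genes above the trend and 18 below it. Thus most ER genes were brighter on the circPan3-/- array by about as much as other genes of their level, and a few stood further out. In bulk RNA, a different share of cells of a type and a different RNA content per cell cannot be told apart.

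**Figure D1:**
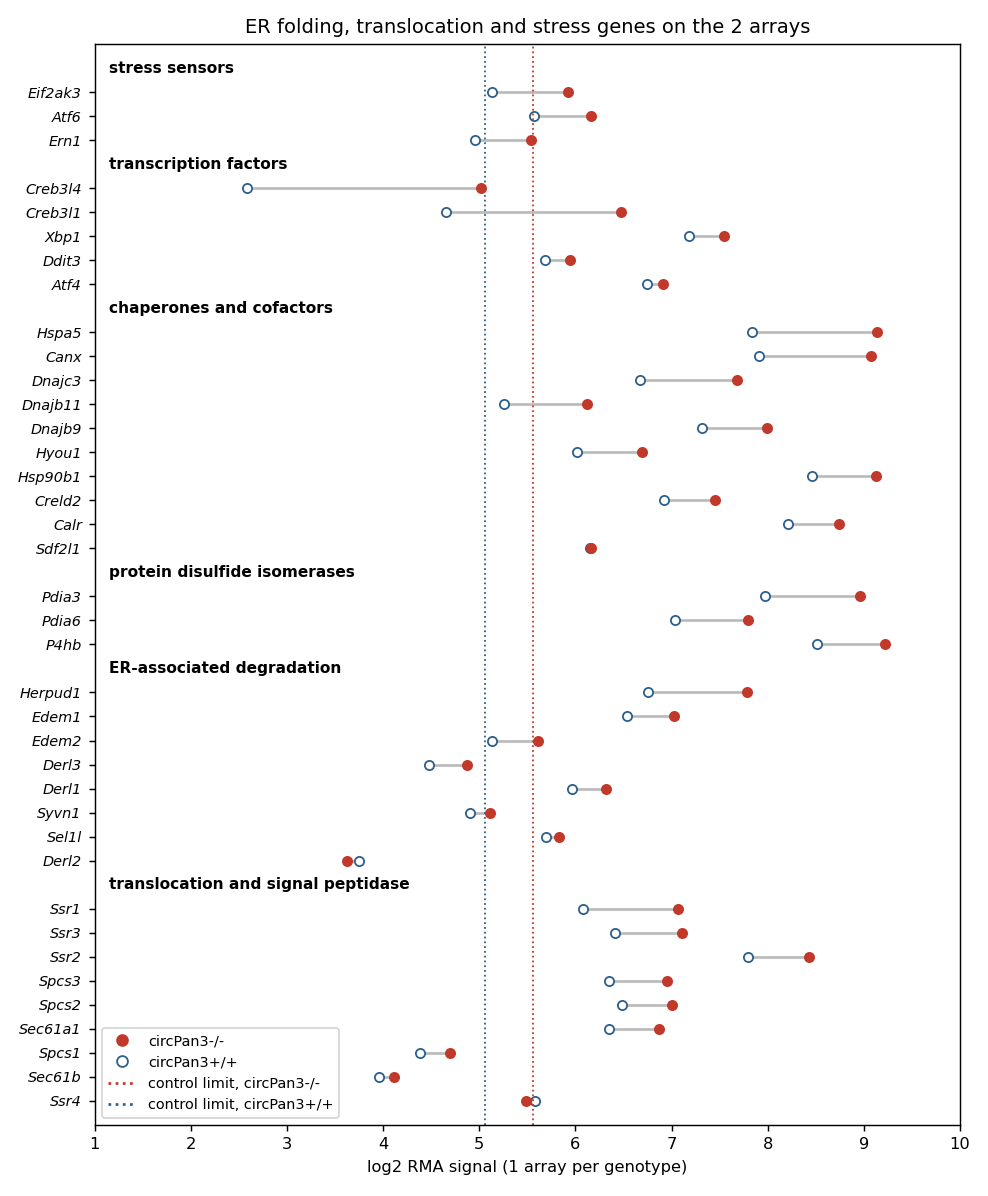
Log2 RMA signal of the 38 measured ER genes (horizontal axis) by role, with the circPan3-/- array as filled red points and the circPan3+/+ array as open blue points, joined by grey lines, and the control limit of each array dotted. The red point lies to the right for 36 genes, with the longest lines at Creb3l4 and Creb3l1, and to the left for Derl2 and Ssr4.

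**Figure D2:**
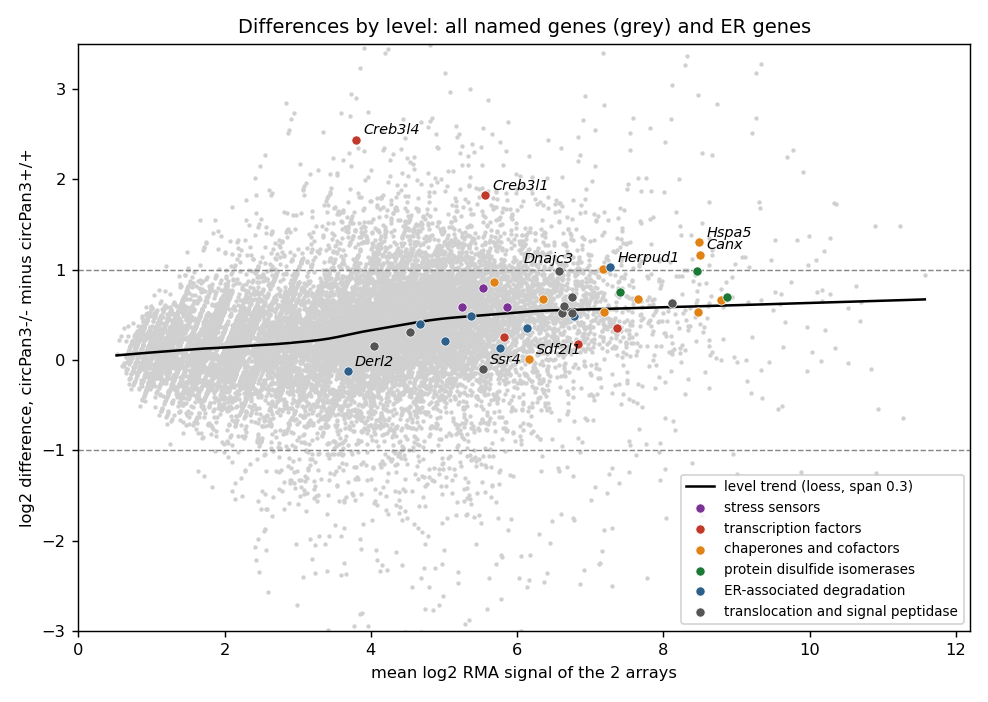
Difference in log2 signal, circPan3-/- minus circPan3+/+ (vertical axis), against the mean log2 signal of the 2 arrays (horizontal axis) for all named genes in grey and the ER genes in colour, with the level trend as a black line, 2-fold as dashed lines, and 45 grey genes outside the plotted range. The trend climbs with level, most ER genes lie close to it, and Creb3l4, Creb3l1, Hspa5 and Canx lie furthest above it.

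Promoters of some of these genes carry known response elements, and their sequences are shown as a description. The list was chosen for the unfolded protein response, so its share of elements is not independent of the choice of genes. RefSeq windows (GRCm38.p6) from 250 bases before to 50 bases after the transcription start were available for 32 of the 40 genes and for 17491 protein-coding genes in all, and both strands were searched. The 17491 genes had 21262 windows, since a gene could have more than 1, and a gene was counted if any of its windows matched. The ER stress element, the site at which ATF6 and the factor NF-Y bind, was searched as CCAAT and CCACG with any 9 bases between them. It was found for 9 of the 32 genes (28.1%) and for 29 of the 17491 (0.166%). The ER stress element II, searched as ATTGG and CCACG with any 1 base between them, was found for 2 of the 32 genes and for 11 of the 17491 (0.0629%). ATTGG is CCAAT read on the other strand, and none of the 32 genes had both forms. The sites follow, with gene, distance of the site's centre from the transcription start in bases (negative before it), position, strand and sequence, the fixed bases of the element in capitals.
Hspa5, -56, chr2:34772025-34772043, + strand: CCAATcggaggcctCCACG
Canx, -136, chr11:50325800-50325818, - strand: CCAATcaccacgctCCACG
Dnajc3, -96, chr14:118937827-118937845, + strand: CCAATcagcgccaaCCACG
Pdia6, -89, chr12:17266491-17266509, + strand: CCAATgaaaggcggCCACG
Hsp90b1, -98, chr10:86705533-86705551, + strand: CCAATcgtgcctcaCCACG
Hsp90b1, -203, chr10:86705638-86705656, - strand: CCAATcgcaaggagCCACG
Creld2, -117, chr15:88819520-88819538, - strand: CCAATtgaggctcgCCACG
Calr, -153, chr8:84847075-84847093, + strand: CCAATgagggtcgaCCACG
Derl3, -147, chr10:75893242-75893260, - strand: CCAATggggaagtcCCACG
Syvn1, -35, chr19:6046532-6046550, + strand: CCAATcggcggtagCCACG
Herpud1, -47, chr8:94386377-94386387, + strand: ATTGGgCCACG
Dnajb11, 12, chr16:22857852-22857862, + strand: ATTGGcCCACG

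The 250 bases before the start of Hspa5, a chaperone gene whose promoter is a standard reporter of ER stress, are given in full because Hspa5 had the largest difference among the ER genes above both limits. Capitals mark the exact match of the element, and near matches are not marked.
Hspa5, chr2:34771840-34772089, + strand: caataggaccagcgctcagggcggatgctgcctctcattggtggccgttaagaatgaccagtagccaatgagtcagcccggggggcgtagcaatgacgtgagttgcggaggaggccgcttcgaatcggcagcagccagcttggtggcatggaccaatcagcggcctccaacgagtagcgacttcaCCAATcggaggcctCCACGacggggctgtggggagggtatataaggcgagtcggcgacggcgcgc
The unfolded protein response element TGACGTGG, a site of XBP1 and ATF6 that ends in CCACG read on the other strand, was found for none of the 32 genes and for 144 of the 17491 (0.823%). The amino acid response element TGATGCAA, through which ATF4 acts, was found among the 32 genes for Herpud1 only, at chr8:94386317-94386324 on the minus strand, and for 177 of the 17491 (1.01%). A match of letters describes the window and does not show that a factor was bound.

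The 3 sensors were all brighter in circPan3-/- cells and lay above the level trend, by between 0.07 and 0.30. Eif2ak3, the kinase PERK that slows translation by phosphorylating eIF2α, had 5.93 in circPan3-/- cells and 5.13 in circPan3+/+ cells, a difference of 0.80 and 0.30 beyond the trend. Its circPan3+/+ value lay just over the limit and was shared by 58 rows. Atf6, a membrane-bound factor that is cut and sent to the nucleus, had 6.16 in circPan3-/- cells and 5.57 in circPan3+/+ cells, a difference of 0.59 and 0.07 beyond the trend. Ern1, the kinase and endoribonuclease IRE1α that splices Xbp1 mRNA, had 5.54 in circPan3-/- cells and 4.95 in circPan3+/+ cells, with both values under their limits and a difference of 0.58 and 0.11 beyond the trend. None of the 3 was 2-fold apart.

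The 5 transcription factors split into a pair far above the level trend and a trio below it. Creb3l1, a membrane-bound factor of secretory cells also known as OASIS, had 6.48 in circPan3-/- cells and 4.65 in circPan3+/+ cells. It was higher by 1.83, or at least 2.67-fold higher when the circPan3+/+ value is set to its limit, and the measured difference lay 1.33 beyond the trend. Creb3l1 also stands in the list of goblet cell markers described below, of which 14 of 15 were at least 2-fold higher, or 9 with bounds; their part in its value was not tested. Creb3l4, a related membrane-bound factor, had 5.02 in circPan3-/- cells and 2.58 in circPan3+/+ cells. Its difference of 2.44 was the largest among the 38 genes, but both values lay under their limits, and the circPan3+/+ value stood in 663 rows. Both factors belong to the CREB3 family, whose other genes showed no such differences. Creb3 had 5.30 in circPan3-/- cells and 5.13 in circPan3+/+ cells, and Creb3l2 had 4.41 in circPan3-/- cells and 4.83 in circPan3+/+ cells, with both genes under both limits. Creb3l3, a factor of lipid metabolism in liver and intestine, was at least 1.45-fold lower, with 5.30 in circPan3-/- cells and 6.09 in circPan3+/+ cells.

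The factors at the core of the response were closer to level on the 2 arrays. Xbp1, which IRE1 splices into an active factor and which Paneth cells of the mouse need, had 7.54 in circPan3-/- cells and 7.19 in circPan3+/+ cells, a difference of 0.36 that lay 0.21 below the trend. An array row that covers the gene does not separate its spliced from its unspliced mRNA. Atf4, the factor translated when eIF2α is phosphorylated, had 6.92 in circPan3-/- cells and 6.74 in circPan3+/+ cells, a difference of 0.17. Ddit3, the stress factor CHOP, had 5.94 in circPan3-/- cells and 5.69 in circPan3+/+ cells, a difference of 0.26. A second row of Ddit3 gave 5.99 in circPan3-/- cells and 5.47 in circPan3+/+ cells, a difference of 0.51. By the rows used, all 3 genes were above both limits and lay below the trend.

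Genes downstream of ATF4 and CHOP had differences of both signs, but those named here with differences below 0 were under both limits. Asns, asparagine synthetase, had 6.24 in circPan3-/- cells and 6.12 in circPan3+/+ cells, a difference of 0.12 that lay 0.42 below the trend. Trib3, Chac1, Sesn2 and Ppp1r15a, which feed back on or execute the response, were under both limits, with differences of 0.64, -0.47, -0.16 and 0.81. Atf3, a stress factor that is also an immediate early gene, stood out, with 8.49 in circPan3-/- cells and 6.54 in circPan3+/+ cells, a difference of 1.95. Nupr1, a small stress-induced chromatin protein, had 6.56 in circPan3-/- cells and 4.98 in circPan3+/+ cells, at least 2.83-fold higher. Of 16 immediate early genes measured, Atf3 among them, 11 were at least 2-fold higher in circPan3-/- cells, with a median of 1.64. Fos had 8.71 in circPan3-/- cells and 6.38 in circPan3+/+ cells, and Jun had 9.23 in circPan3-/- cells and 6.82 in circPan3+/+ cells; the part of such genes in the values of the stress genes was not tested.

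The 10 chaperones and cofactors measured, all above both limits, had a median difference of 0.67, and 3 of them were at least 2-fold higher in circPan3-/- cells. Of all named genes above both limits 13.9% were higher by 2-fold. Hspa5, the HSP70 of the ER lumen known as BiP, had 9.14 in circPan3-/- cells and 7.83 in circPan3+/+ cells, higher by 1.30 or 2.47-fold. Its difference lay 0.71 beyond the trend, and 162 of the 2618 named genes above both limits had a larger difference. Canx, the lectin calnexin that holds newly glycosylated chains, had 9.08 in circPan3-/- cells and 7.91 in circPan3+/+ cells, higher by 1.16 or 2.24-fold. Dnajc3, the J-domain cofactor of BiP known as p58IPK, had 7.68 in circPan3-/- cells and 6.67 in circPan3+/+ cells, higher by 1.01 or 2.02-fold. All 3 of these genes carry the ER stress element shown above, and so do Hsp90b1, Creld2 and Calr, which were not 2-fold apart. Beyond the trend Hsp90b1, Creld2 and Calr stood at 0.06, -0.03 and -0.07.

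The other chaperones carried smaller differences, and not all partners of BiP went with it. Dnajb11, a J-domain cofactor with the ER stress element II just after its start, had 6.12 in circPan3-/- cells and 5.26 in circPan3+/+ cells, a difference of 0.86. Its circPan3+/+ value was shared by 76 rows. Dnajb9, a J-domain cofactor that also restrains IRE1, had 7.99 in circPan3-/- cells and 7.32 in circPan3+/+ cells, a difference of 0.68. Hyou1, the nucleotide exchange factor of BiP, had 6.69 in circPan3-/- cells and 6.02 in circPan3+/+ cells, a difference of 0.67. Both lay within 0.13 above the trend. Hsp90b1, the ER form of HSP90 with 2 elements in its promoter, had 9.12 in circPan3-/- cells and 8.46 in circPan3+/+ cells, a difference of 0.66. Calr, the soluble lectin partner of calnexin, had 8.74 in circPan3-/- cells and 8.21 in circPan3+/+ cells, a difference of 0.53. Calr and Canx do related work and both carry the ER stress element, yet beyond the trend Calr stood at -0.07 and Canx at 0.57. Creld2, a disulfide isomerase-like stress target, had 7.45 in circPan3-/- cells and 6.92 in circPan3+/+ cells, a difference of 0.53. Sdf2l1, which works with BiP and Dnajb11 and is a standard target of the response, had 6.16 in circPan3-/- cells and 6.16 in circPan3+/+ cells, a difference of 0.01. It lay 0.53 below the trend, the lowest of the 10.

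The 3 protein disulfide isomerases measured, which form and reshuffle disulfide bonds, were higher by between 0.70 and 0.99. All 3 were above the trend, as were 50.9% of the named genes above both limits. Pdia3, which acts on glycoproteins bound to calnexin or calreticulin, had 8.96 in circPan3-/- cells and 7.97 in circPan3+/+ cells, higher by 0.99 or 1.98-fold. Pdia6, an isomerase that binds IRE1 and BiP, had 7.79 in circPan3-/- cells and 7.03 in circPan3+/+ cells, a difference of 0.76. P4hb, the founding isomerase PDI, had 9.22 in circPan3-/- cells and 8.52 in circPan3+/+ cells, a difference of 0.70 that was 0.10 beyond the trend. Pdia3 thus lay just short of 2-fold, while Dnajc3, at 2.02-fold, lay just past it. Ero1a, the oxidase that recharges the isomerases, did not follow them, with 6.72 in circPan3-/- cells and 6.80 in circPan3+/+ cells.

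Of the 8 genes of ER-associated degradation, which returns misfolded proteins to the cytosol for the proteasome, 7 lay below the level trend. Edem1, Edem2 and Derl3 were within 0.07 of the trend, and 9674 of all 19232 named genes also lay below it. The exception among the 8 was Herpud1, a stress-induced scaffold of the ubiquitin ligase complex. It had 7.79 in circPan3-/- cells and 6.76 in circPan3+/+ cells, higher by 1.03 or 2.04-fold and 0.46 beyond the trend, and its promoter holds both the ER stress element II and the amino acid response element. The core of that ligase complex stood apart from Herpud1. Sel1l, the adaptor of the ligase, had 5.83 in circPan3-/- cells and 5.70 in circPan3+/+ cells, a difference of 0.13. Syvn1, the ligase HRD1, had 5.12 in circPan3-/- cells and 4.91 in circPan3+/+ cells, both under their limits, although its promoter carries the ER stress element. Derl1, a membrane protein of the exit channel, had 6.31 in circPan3-/- cells and 5.96 in circPan3+/+ cells, a difference of 0.35. Its relative Derl2 had 3.62 in circPan3-/- cells and 3.75 in circPan3+/+ cells, and Derl3, which also carries the element, had 4.88 in circPan3-/- cells and 4.48 in circPan3+/+ cells. Both were under both limits, with differences of -0.12 and 0.40. Edem1 and Edem2, which trim mannose from misfolded glycoproteins, differed by 0.49 and 0.48. Edem1 had 7.02 in circPan3-/- cells and 6.54 in circPan3+/+ cells, and Edem2 had 5.61 in circPan3-/- cells and 5.13 in circPan3+/+ cells, which put Edem2 only just over both limits.

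The 9 translocation genes had a median difference of 0.52, and none was 2-fold apart. Of the channel itself, Sec61a1, the pore subunit, had 6.87 in circPan3-/- cells and 6.35 in circPan3+/+ cells, a difference of 0.51. The small subunit Sec61b had 4.12 in circPan3-/- cells and 3.96 in circPan3+/+ cells, both under their limits. The 4 subunits of the translocon-associated protein complex, which helps certain signal sequences open the channel, had differences of unlike size. Ssr1 had 7.06 in circPan3-/- cells and 6.08 in circPan3+/+ cells, higher by 0.99 or 1.98-fold. Ssr3 had 7.10 in circPan3-/- cells and 6.41 in circPan3+/+ cells, a difference of 0.69. Ssr2 had 8.43 in circPan3-/- cells and 7.80 in circPan3+/+ cells, a difference of 0.63. Ssr4 was close to level, with 5.48 in circPan3-/- cells, under the limit, and 5.58 in circPan3+/+ cells, at least 1.02-fold lower. The signal peptidase subunits, which cut off or support cutting of the signal sequence, were close to one another and to the trend. Spcs2 had 7.01 in circPan3-/- cells and 6.48 in circPan3+/+ cells, and Spcs3 had 6.95 in circPan3-/- cells and 6.35 in circPan3+/+ cells, differences of 0.52 and 0.60. Spcs1 was under both limits, with 4.70 in circPan3-/- cells and 4.38 in circPan3+/+ cells.

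Members of the same complex therefore spanned a range of differences, but over the whole list that range was not wide. Beyond the level trend, the middle 50% of the 29 genes above both limits spanned 0.37, against 0.56 for all 2618 named genes above both limits. Of these 29 genes 17 lay above the trend, against 50.9% of the named genes above both limits. How many genes were past 2-fold depended on how the offset between the arrays was treated. Centred on the median of all named genes, 3 of the 38 were higher by 2-fold, against 3.66% of all named genes, and none was lower, against 3.51%. Beyond the level trend, 2 were higher, Creb3l4 and Creb3l1, and none was lower, against shares of 2.71% higher and 3.92% lower of all named genes. Both calls rest on circPan3+/+ values under the limit. Of the 29 genes above both limits none was 2-fold apart beyond the trend, the highest being Hspa5 at 0.71, against 3.44% higher and 4.09% lower of the named genes above both limits.

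**Figure D3:**
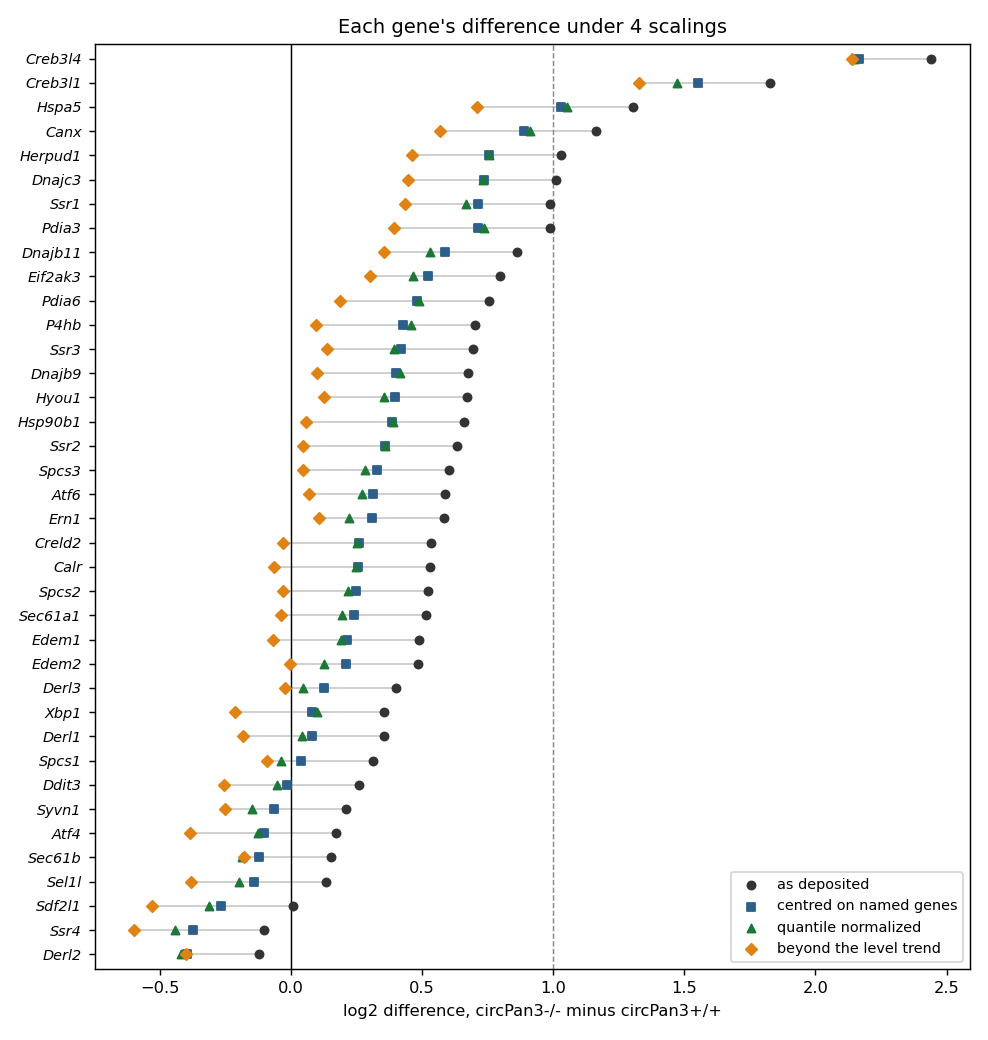
Log2 difference, circPan3-/- minus circPan3+/+ (horizontal axis), of each of the 38 genes as deposited, after centring on the median of all named genes, after quantile normalization and beyond the level trend, with 2-fold dashed. Among genes above both limits, Hspa5 is short of it only beyond the level trend, and Canx, Herpud1 and Dnajc3 are past it only as deposited, while Creb3l4 and Creb3l1, plotted furthest right, have circPan3+/+ values under the limit.

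Grouped by promoter, the 11 genes with either form of the ER stress element had differences of 0.21 to 1.30 with a median of 0.76. Of these 11 genes 9 were above both limits, and 4, Hspa5, Canx, Herpud1 and Dnajc3, were at least 2-fold higher. Of all named genes 7.48% were higher by 2-fold, and of those above both limits 13.9%. Beyond the level trend none of the 4 was past 2-fold, at 0.71, 0.57, 0.46 and 0.45. The 20 measured genes whose windows held neither form had a median of 0.49, and 14 of them were above both limits. Only 1 of the 20, Creb3l4, had a difference past 2-fold, and both its values were under their limits. Only exact matches of the fixed bases were counted, so a window with neither form may still hold a near match. Beyond the level trend the medians were 0.19 with an element and -0.05 without, and the ranges overlapped. The 20 genes outside the list whose window held the ER stress element had a median difference of 0.17, and none was 2-fold apart, but only 1 of them was above both limits. Hspa5 and Syvn1, with the elements closest to the start among the 9 genes with the ER stress element, were at opposite ends of its range.

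**Figure D4:**
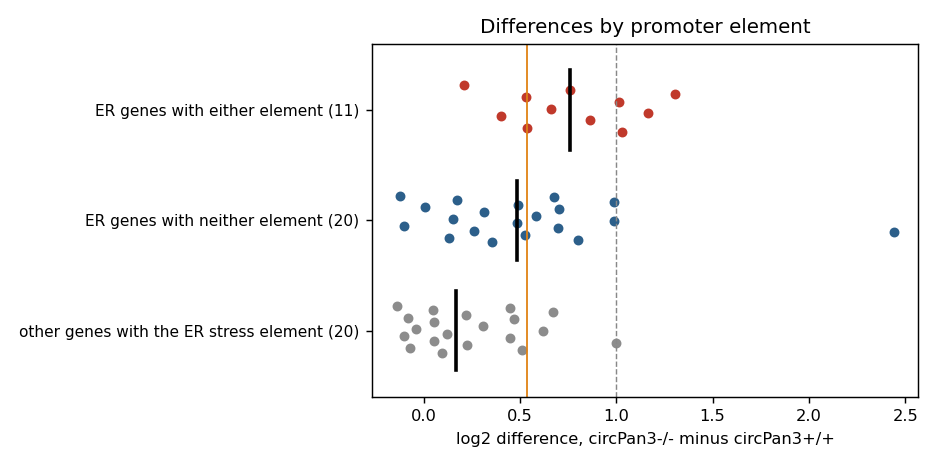
Log2 difference, circPan3-/- minus circPan3+/+ (horizontal axis), of single genes as points, with group medians as black bars, the median of the named genes above both limits as an orange line and 2-fold dashed. The 11 ER genes with an element centre on 0.76, the 20 ER genes without an exact match on 0.49 and the 20 other genes with the element on 0.17.

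The rest of the ER pathway was read from 155 further genes, of which 142 were measured. In circPan3-/- cells 16 of the 142 were higher by 2-fold or more and none was lower by 2-fold. Their median difference was 0.48, or 0.02 beyond the level trend. Of all named genes 7.48% were higher by 2-fold and 2.17% lower, and of those above both limits 13.9% and 1.57%. These shares also stand beside the counts of the single ER lists that follow. With bounds 13 of the 142 were higher, and 77 of the 142 were above both limits. The 35 folding genes among them had 5 higher, or 3 with bounds, and a median of 0.57. The largest difference was that of Agr2, a disulfide isomerase that mice need to make intestinal mucin, with 9.79 in circPan3-/- cells and 7.52 in circPan3+/+ cells, a difference of 2.27. Pdia5, another isomerase, had 5.89 in circPan3-/- cells and 3.92 in circPan3+/+ cells, at least 1.78-fold higher. Erp44, which retains unfinished secretory proteins, had 6.66 in circPan3-/- cells and 5.52 in circPan3+/+ cells. Uggt1, the sensor that sends misfolded glycoproteins back to calnexin, had 6.53 in circPan3-/- cells and 5.49 in circPan3+/+ cells, a difference of 1.04. Canx, Pdia3 and Uggt1, which work in 1 folding cycle, thus stood at 1.16, 0.99 and 1.04, and Calr, of the same cycle, at 0.53. Ganab and Prkcsh, also of that cycle and above both limits, stood at 0.57 and 0.73.

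The 20 other stress response genes had 3 higher, Atf3, Nupr1 and Ern2, or 2 with bounds. Ern2, IRE1β, the form of the sensor found in mucus-secreting epithelium, had 5.35 in circPan3-/- cells and 3.47 in circPan3+/+ cells, both under their limits, a difference of 1.88. Its sister Ern1 differed by 0.58. The 31 translocation and glycosylation genes had 2 higher and a median of 0.43. Stt3b, a catalytic subunit of oligosaccharyltransferase, had 8.47 in circPan3-/- cells and 7.19 in circPan3+/+ cells, a difference of 1.28, and Magt1, which serves the same complex, differed by 1.05. Ost4, a small subunit of that enzyme, was lower by 0.26, with 7.52 in circPan3-/- cells and 7.78 in circPan3+/+ cells. Of the measured genes of this enzyme only Ost4 lay below 0. In the translocon-associated complex only Ssr4 was below 0, at -0.10 and with its circPan3-/- value under the limit.

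The 32 vesicle export genes had 5 higher and a median of 0.51. Tmed7, a cargo receptor of COPII and COPI vesicles, had 7.72 in circPan3-/- cells and 6.38 in circPan3+/+ cells, a difference of 1.33. Kdelr1, the receptor that returns ER residents such as BiP from the Golgi, had 6.33 in circPan3-/- cells and 5.29 in circPan3+/+ cells, a difference of 1.05. Copb1, a coat subunit, also differed by 1.05. Mia2, which loads bulky cargo at ER exit sites, was lower by 0.31, with 6.10 in circPan3-/- cells and 6.41 in circPan3+/+ cells. The 24 degradation genes had 1 higher, Rad23b, a shuttle to the proteasome, at 1.00, and a median of 0.47. Nploc4 and Vcp, which pull substrates out of the membrane, differed by -0.13 and 0.17.

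Markers of the secretory cells of the gut were also brighter in circPan3-/- cells, and by more. Of 15 goblet cell markers measured, 14 were at least 2-fold higher in circPan3-/- cells, with medians of 8.23 in circPan3-/- cells and 5.48 in circPan3+/+ cells and a median difference of 2.12. On both arrays 8 of the 15 were above the limit, and 4 were above it on neither, so that with bounds 9 were at least 2-fold higher. That list holds Creb3l1, Agr2 and Ern2. Without genes of any ER list it had 11 of 12 higher, or 7 with bounds, and a median of 2.14. Muc2, the gel-forming mucin of goblet cells, had 9.65 in circPan3-/- cells and 6.60 in circPan3+/+ cells, a difference of 3.04. All 10 Paneth cell markers measured were at least 2-fold higher, and 9 of them were above both limits. Their medians were 10.38 in circPan3-/- cells and 8.20 in circPan3+/+ cells, and their median difference was 1.81. Ang4, an antimicrobial ribonuclease of these cells, had 10.01 in circPan3-/- cells and 6.64 in circPan3+/+ cells. Of 11 secretory fate factors 6 had differences past 2-fold, but 6 of the 11 were under both limits, and with bounds 2 were at least 2-fold higher. Atoh1, the factor that commits crypt cells to the secretory lineage, had 5.63 in circPan3-/- cells and 3.44 in circPan3+/+ cells, the circPan3+/+ value under its limit, so that it was at least 1.48-fold higher. The ER genes' median of 0.59 was thus smaller than the 2.12 and 1.81 of the goblet and Paneth lists. With Agr2, Ern2, Atf3 and Nupr1 left out, as genes also held by a marker list, the other ER genes had 12 of 138 higher, or 10 with bounds, and a median of 0.47. Of all named genes 7.48% were higher by 2-fold, and of those above both limits 13.9%.

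Markers of further cell types differed in direction from list to list. Of 13 enterocyte markers none was higher by 2-fold and 4 were lower by 2-fold, with a median of -0.51. Of 13 enteroendocrine markers 7 had differences past 2-fold, with a median of 1.07, but 8 were under both limits, and with bounds 3 were at least 2-fold higher. Of 9 tuft cell markers 3 had higher values past 2-fold and none lower, with a median of 0.87, but all 9 were under both limits. For plasma cells, which also hold a large ER, the arrays were of little use. Of 10 plasma and B cell markers measured, Derl3 among them, 6 were under both limits and 1, Jchain, was above both, and none was 2-fold apart. Jchain, the joining chain of secreted antibodies, had 8.57 in circPan3-/- cells and 8.02 in circPan3+/+ cells. Of 15 myeloid markers 11 had differences past 2-fold towards lower values in circPan3-/- cells, with medians of 4.23 in circPan3-/- cells, under the limit, and 6.06 in circPan3+/+ cells. Of these 15, 2 were above both limits, and with bounds 4 were at least 2-fold lower. The part of other cell types in the differences of the ER genes was not tested.

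**Figure D5:**
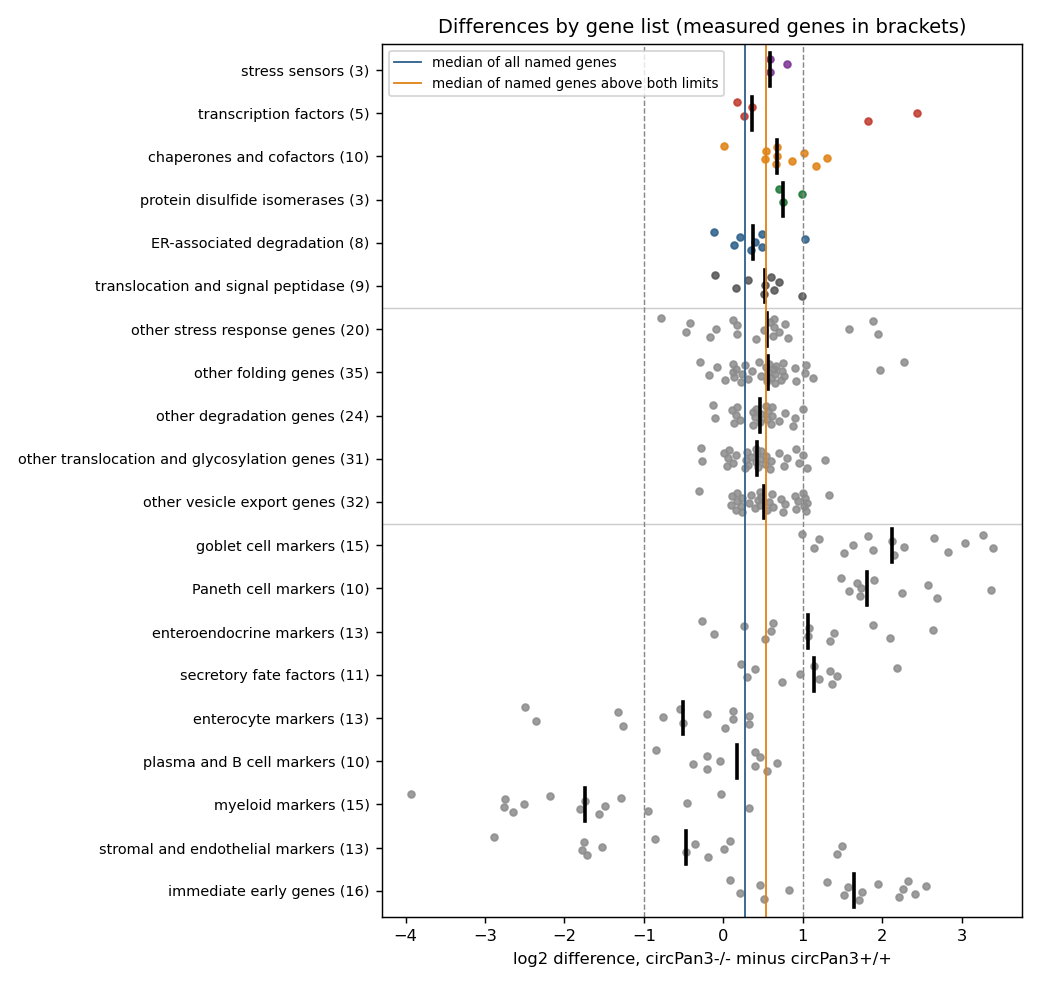
Log2 difference, circPan3-/- minus circPan3+/+ (horizontal axis), of single genes as points by list, with list medians as black bars, 2-fold dashed, and the medians of all named genes and of those above both limits as blue and orange lines. The ER roles and the other ER lists centre between 0.36 and 0.76, while goblet and Paneth cell markers centre on 2.12 and 1.81.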

How the data were processed

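Per the submitters' processing notes, the authors processed the arrays with Affymetrix Power Tools and RMA, which corrects background, normalizes and summarizes probes into 1 value per transcript cluster; versions, build and scanner settings were not given in the sources used here. Values as deposited (72688 rows, -0.18 to 13.07) were read as log2 signal; the table states no unit, and the base rests on the range and on RMA's usual output. The 2 deposited columns do not share 1 distribution (medians 2.62 in circPan3-/- and 2.51 in circPan3+/+ cells), so their common scaling is uncertain.

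Rows were named from the platform annotation, with repeated symbols merged. Of the transcript clusters, 31261 had 1 symbol, 1489 several and 33206 none. Protein-coding genes of the RefSeq table (GRCm38.p6) were kept, each by its brightest row. The value columns of both arrays entered every difference. Rows were described by the rule of at least 2-fold, with no test. The level trend was a loess curve (span 0.3) of the difference on the mean level. The members and lists were chosen with earlier results of these data known. The text names all 40 members, the 3 highest and 3 lowest of each list of other ER genes above both limits (not all are printed), up to 4 of each marker list furthest from 0 (not all are printed), Pan3 and Lgr5. The CREB3 family, Ern2, Nupr1, Pdia5, Prkcsh, Trib3, Chac1, Sesn2, Ppp1r15a, Olfm4 and Jchain, where outside that rule, were chosen after their values were seen. Array number, not depth, limits the precision.

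Sequences are from RefSeq (GRCm38.p6), and their coordinates do not come from the array. Python 3.11.15, numpy 2.4.6 and pandas 2.3.3 were used, and the functions were tested on simulated data with known differences. Alternatives were centring, loess, quantile normalization, filters on level, bounds at the limits, a mean over the rows of each symbol, values held by no other row and a threshold of 1.5-fold.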

Additional observations from a re-analysis of the deposited data

How the results depend on the processing

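The number of ER genes at least 2-fold higher in circPan3-/- cells was 6 as deposited, and the median difference was 0.59. After centring on the median of all named genes they were 3 and 0.31, after quantile normalization 3 and 0.26, and beyond the loess trend 2 and 0.048. At a threshold of 1.5-fold 19 genes were higher, against 24.3% of all named genes. These shares are not matched for level, since 15239 of the 19232 named genes were under both limits and the offset grew with brightness. Atf6, at 0.59, had the smallest difference of the 19 genes. Of the 2618 named genes above both limits, 1164 had a larger difference than Atf6. Canx, Dnajc3 and Herpud1 lost their 2-fold call under centring, quantile normalization and loess, and Hspa5 also under loess, by the construction of these scalings, which take away the offset between the arrays. The calls of Creb3l1 and Creb3l4 did not change under the 3 scalings, but they rest on circPan3+/+ values under the limit, and for Creb3l4 on both values, so they say nothing about stability. Filters on level, bounds, the mean of all rows and values held by no other row gave 4 to 6 higher genes and medians of 0.59 to 0.63. No gene was 2-fold lower under any alternative run. Which scaling is right cannot be told from 2 arrays, and genes under the control limits have no usable fold. No paired analysis was possible because each genotype has 1 array and no test was made, and no array could be left out for the same reason.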
